A study of Mus musculus with 48 samples.

Results

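The brown fat of the mouse (brown adipose tissue, BAT) was compared with its epididymal white fat (eWAT) in mice that were kept warm, so that the brown depot was not being driven by cold. The comparison rests on 8 of the 48 RNA-seq libraries of the series: the 4 BAT and the 4 eWAT libraries of hepAGT+/+ mice housed at thermoneutrality (TN, 30 °C), chosen by their labels alone. All mice were male, and for 12 weeks all ate a Western diet (0.2% cholesterol, 21% fat from milk). The hepAGT+/+ animals are the wild-type littermates of hepAGT-/- mice, which lack angiotensinogen (Agt) in hepatocytes, and the driver of that deletion is not given in the sources used here. The same depots of hepAGT+/+ mice at room temperature (RT, 20 to 22 °C, 4 libraries a depot) and of hepAGT-/- mice at TN (4 libraries a depot) served as reference points. The labels call the replicates biological, but they do not say whether a BAT and an eWAT library come from one animal. Every animal was on the rich diet, so neither depot has a lean counterpart here.

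Brown fat burns fatty acids and glucose to make heat. Its adipocytes hold many small lipid droplets and many mitochondria, and noradrenaline from sympathetic nerves acts on their β-adrenergic receptors to release fatty acids and to open uncoupling protein 1 (UCP1), which lets protons back across the inner mitochondrial membrane without making ATP. White adipocytes store triglyceride in one large droplet and secrete hormones such as leptin and adiponectin. For a mouse ordinary room temperature is a mild cold stress, and thermoneutral housing removes most of that nervous drive, after which brown fat accumulates lipid and comes to look more like white fat.

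Library sizes ran from 27319551 to 31265839 counted reads in TN BAT and from 28656921 to 36119574 in TN eWAT, and from 25304872 to 39383039 over the RT libraries. Transcripts of the mitochondrial genome took 17.2 to 19.1% of the counts in TN BAT replicates 24, 6 and 7, 32% in replicate 1, and 3.14 to 4.31% in TN eWAT. Of the 4 TN BAT libraries, replicates 6 and 24 also held skeletal muscle transcripts: the summed level of 15 muscle markers was 5864 and 7473 CPM there (read counts scaled to the library's size), against 73.1 in replicate 7, 76.2 in replicate 1 and 50.8 to 84.6 in TN eWAT. In RT BAT this sum was 121 to 992 CPM, highest in replicate 15, against 55.5 to 90.7 CPM in RT eWAT. Another library stood against its own label. In the library labelled eWAT TN replicate 8, several genes typical of visceral fat and its mesothelial covering, chosen after their values were seen, were at or near 0 (Wt1 0, Tcf21 0.0943, Upk3b 0.377 and Msln 0.141 CPM), whereas the other 15 eWAT libraries of the series held 2.49 to 10.0, 1.88 to 6.43, 6.70 to 81.4 and 1.53 to 39.5 CPM. The sum of all 12 mesothelial markers was not near 0 there: at 68.5 CPM it was the lowest of TN eWAT (up to 268 CPM) but above RT eWAT replicates 12 and 15 (56.4 and 54.6 CPM). The library held 14.3 CPM of Tbx15, a transcription factor known in mice from subcutaneous and brown fat, and 19.3 CPM of Hoxc10, against at most 0.636 and 1.66 CPM in the other 15. Its level of the white-fat hormone gene Lep, 3020 CPM, lay within their range of 924 to 3650 CPM. Results were therefore also computed without replicates 6 and 24 of TN BAT, and without the library labelled eWAT TN replicate 8.

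**Figure D1:**
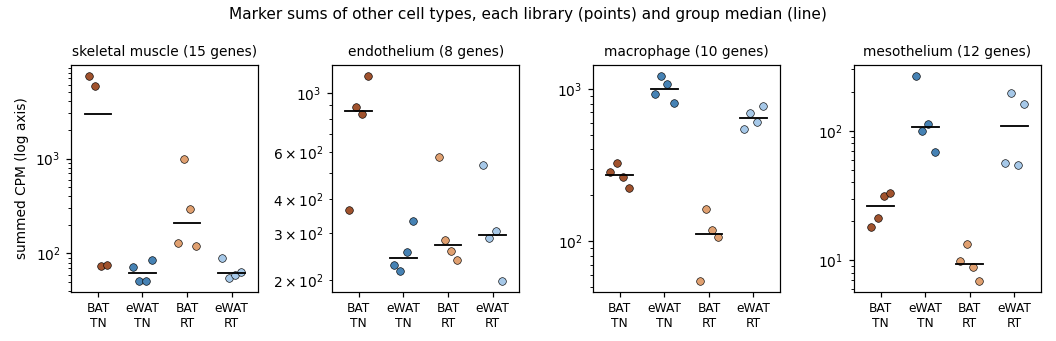
Summed CPM (log axis) of the markers of skeletal muscle (15 genes), endothelium (8), macrophages (10) and mesothelium (12), by library (points) with the median of each group (line). TN BAT replicates 6 and 24 stand at 5864 and 7473 CPM for muscle, and the library labelled eWAT TN replicate 8 is the lowest of its group for mesothelium at 68.5 CPM, within the range of RT eWAT (54.6 to 198 CPM).

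Ucp1 (ENSMUSG00000031710) marked the brown depot at both temperatures. Its level was 5101, 1479, 1489 and 2137 CPM in TN BAT replicates 24, 6, 7 and 1, and 0.711, 0.0939, 0 and 0.212 CPM in TN eWAT replicates 23, 6, 7 and 8. Every BAT library thus lay far above every eWAT library. The fitted log2 difference, BAT minus eWAT, was 13.28 (SE 0.91, adjusted p = 4.69e-08) at TN and 13.19 (SE 0.88, adjusted p = 1.25e-08) at RT, where the BAT libraries held 5514 to 12410 CPM. The depot-by-housing interaction, which is the TN difference minus the RT difference, was 0.10 (SE 0.83, adjusted p = 0.959). These folds, and so the interaction, rest on eWAT levels near 0: the TN difference was 14.474 without eWAT replicate 23 and 12.697 without BAT replicate 24. The SE of the interaction is below the SE of each difference that makes it up, so it is only approximate. The level of Ucp1 in BAT averaged 2551 CPM at TN and 9147 CPM at RT, so an interaction near 0 does not mean an unchanged BAT level. In these bulk samples, fewer cells of a type and less RNA per cell cannot be told apart.

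The 250 bases before the transcription start of Ucp1 and of 3 other genes are shown as examples of each side of the depot contrast. On the brown side are Ucp1 and the fatty acid binding protein Fabp3. On the white side are the hormone gene Lep and the Wnt antagonist gene Sfrp5. Sequences are from RefSeq (GRCm38.p6), 5′ to 3′ on the gene's strand, and capitals mark TGACG, the half-site read by cAMP-responsive factors such as CREB, searched on both strands.
Ucp1, chr8:83290098-83290347 (+): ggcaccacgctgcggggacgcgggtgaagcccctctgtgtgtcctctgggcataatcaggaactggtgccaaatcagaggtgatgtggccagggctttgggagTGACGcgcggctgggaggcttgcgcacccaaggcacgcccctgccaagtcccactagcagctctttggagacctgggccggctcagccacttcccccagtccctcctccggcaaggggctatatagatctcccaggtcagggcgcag
Fabp3, chr4:130308488-130308737 (+): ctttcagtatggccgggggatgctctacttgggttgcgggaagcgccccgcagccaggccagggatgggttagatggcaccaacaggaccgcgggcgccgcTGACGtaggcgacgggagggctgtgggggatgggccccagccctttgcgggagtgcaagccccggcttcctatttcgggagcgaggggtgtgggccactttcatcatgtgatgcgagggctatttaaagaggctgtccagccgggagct
Lep, chr6:29059971-29060220 (+): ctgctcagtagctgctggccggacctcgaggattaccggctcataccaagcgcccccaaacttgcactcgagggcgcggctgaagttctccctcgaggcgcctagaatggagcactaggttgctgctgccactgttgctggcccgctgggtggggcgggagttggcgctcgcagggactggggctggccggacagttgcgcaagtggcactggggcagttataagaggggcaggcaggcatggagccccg
Sfrp5, chr19:42202253-42202502 (-): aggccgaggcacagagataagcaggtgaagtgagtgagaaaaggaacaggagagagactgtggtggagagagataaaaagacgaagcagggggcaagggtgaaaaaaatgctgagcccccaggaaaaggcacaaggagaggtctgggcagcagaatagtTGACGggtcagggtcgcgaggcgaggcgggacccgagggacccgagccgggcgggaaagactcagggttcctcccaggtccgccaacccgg
A match began 147 bases before the start of Ucp1 and 149 bases before that of Fabp3, but one also began 91 bases before that of the white-side gene Sfrp5, and the Lep window held none. Over whole groups of genes, TGACG was in 125 of 685 promoter windows (18.2%) of genes called at least 4-fold higher in BAT at TN, in 118 of 900 (13.1%) of those called at least 4-fold higher in eWAT, in 3778 of 15744 (24.0%) over all genes tested and in 5836 of 32851 (17.8%) over all promoters of the table. A match describes the letters only.

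Across 18680 genes with enough counts, 7644 (40.9%) differed between warm BAT and eWAT at an adjusted p under 0.05, which is called a difference below. Of these, 3934 (21.1%) were higher in BAT and 3710 (19.9%) higher in eWAT. At least 4-fold differences numbered 2087 (11.2%), with 1011 (5.41%) higher in BAT and 1076 (5.76%) higher in eWAT. All 4 BAT libraries lay above all 4 eWAT libraries for 3670 genes (19.6%), and below them for 3633 (19.4%). Without BAT replicates 6 and 24, the genes called higher in BAT and in eWAT numbered 3332 (17.8%) and 3242 (17.4%). Without the library labelled eWAT TN replicate 8, they numbered 3676 (19.0%) and 3523 (18.2%), together 37.2% of 19342 genes. The counts of gene groups below are read against the shares of 21.1% and 19.9%.

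Most of the brown-fat programme stood apart from eWAT in warm animals. Of 30 genes listed for brown adipocytes and thermogenesis, 29 had enough counts, 23 were higher in BAT at TN, 1 was higher in eWAT and 5 were not called, with a median log2 difference of 3.85 against 0.0351 over all genes tested. At RT 28 of the 29 were higher in BAT, with a median of 4.57. Cidea (ENSMUSG00000024526), a protein of the lipid droplet surface in brown adipocytes, was at 1450, 961, 1009 and 1335 CPM in TN BAT and at 1.48, 0.985, 0.920 and 8.06 CPM in TN eWAT, the last in the library labelled replicate 8. The depots were far apart in every library, with a log2 difference of 8.68 (SE 0.80, adjusted p = 1.18e-06), and of 10.04 without that library. Cox7a1 (ENSMUSG00000074218), a subunit of cytochrome c oxidase made in muscle and brown fat, was at 435, 280, 306 and 333 CPM against 1.97, 4.15, 2.88 and 3.06 CPM, a log2 difference of 6.80 (SE 0.30, adjusted p = 4.35e-11).

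Several genes of the brown depot were not detected in eWAT at all. Lgr6 (ENSMUSG00000042793), a receptor for R-spondins, was at 171, 58.2, 50.9 and 91.5 CPM in TN BAT and at 0 in all 4 TN eWAT libraries. Against a floor of 3 counts per library (0.089 CPM in the library where 3 counts weigh most) it was at least 1040-fold higher in BAT. Cpt1b (ENSMUSG00000078937), the muscle and brown-fat form of the enzyme that admits long-chain fatty acids to mitochondria, was even across the BAT libraries at 11.6, 12.7, 14.8 and 12.8 CPM, with 0 in each eWAT library, so that it was at least 146-fold higher. The BAT replicates with muscle transcripts were not the higher ones for this gene. Zic1 (ENSMUSG00000032368), a transcription factor long used as a marker of interscapular brown fat, was at 2.82, 7.25, 10.6 and 8.57 CPM against 0 in every eWAT library of both temperatures, at least 82.1-fold higher at TN and 93.4-fold at RT.

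Heart-type fatty acid binding protein Fabp3 (ENSMUSG00000028773) was at 1487, 834, 868 and 840 CPM in TN BAT, replicate 24 being the high one, and below 1 CPM in each eWAT library. Its log2 difference was 11.24 (SE 0.78, adjusted p = 6.02e-08) at TN and 12.15 at RT. Perm1 (ENSMUSG00000078486), a regulator of mitochondrial genes downstream of PGC-1α, was at 39.8 to 55.1 CPM against 0 to 0.178 CPM, a log2 difference of 9.05 (SE 0.57, adjusted p = 9.47e-09), and of 9.08 without the muscle-bearing libraries. Ppargc1a (ENSMUSG00000029167), which encodes PGC-1α, was at 86.1, 36.1, 28.1 and 35.9 CPM against 2.25 to 4.10 CPM, a log2 difference of 3.85 (adjusted p = 2.03e-07). The kinase gene Pdk4 (ENSMUSG00000019577), which holds pyruvate back from oxidation, was at 1618 to 3427 CPM against 25.3 to 64.8 CPM, with nearly equal log2 differences of 5.38 at TN and 5.41 at RT.

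Regulators of brown-fat identity were also measured in eWAT. Prdm16 (ENSMUSG00000039410), a coregulator that holds cells in the brown lineage, was at 34.4, 20.9, 16.0 and 28.1 CPM in TN BAT and 3.86, 3.68, 4.72 and 15.6 CPM in TN eWAT, the last again in the library labelled replicate 8. The groups did not overlap, and the log2 difference was 1.83 (SE 0.43, adjusted p = 0.00283), with an adjusted p of 2.93e-06 without that library. Ebf2 (ENSMUSG00000022053), a transcription factor that opens brown-fat enhancers, was at 52.0 to 77.8 CPM against 13.5 to 24.8 CPM, a log2 difference of 1.57 (adjusted p = 5.44e-06). For Prdm16 and Ebf2 the interaction was small, -0.22 (adjusted p = 0.839) and -0.25 (adjusted p = 0.566). Irf4 (ENSMUSG00000021356), a transcription factor that partners PGC-1α in brown fat, was the exception in direction: it was lower in BAT at TN (log2 difference -0.65, adjusted p = 0.0181, and -0.58 with adjusted p = 0.0557 without the library labelled eWAT replicate 8) and higher at RT (0.70, adjusted p = 0.00948).

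**Figure D2:**
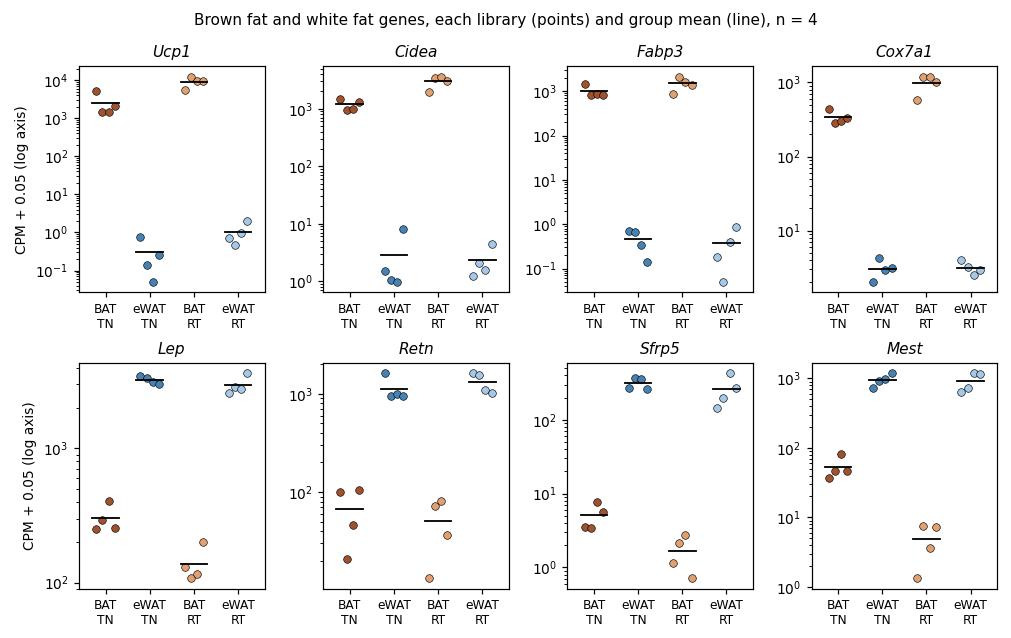
CPM (log axis, 0.05 added) of Ucp1, Cidea, Fabp3, Cox7a1, Lep, Retn, Sfrp5 and Mest in BAT and eWAT at TN and RT, each point a library and each line the group mean. For all 8 genes the TN BAT and TN eWAT libraries do not overlap.

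Within the warm BAT group, replicate 24 was the highest library for Ucp1, Dio2 and Gk but the lowest for Cpt1b and Zic1. Dio2 (ENSMUSG00000007682), the deiodinase that makes active thyroid hormone inside brown adipocytes, was at 224 CPM in that library and at 9.16, 21.4 and 38.1 CPM in the other three, against 1.04 to 1.57 CPM in eWAT. All 4 BAT libraries lay above all 4 eWAT libraries, and the log2 difference of 5.86 (SE 0.95, adjusted p = 0.000285) became 4.57 without replicates 6 and 24. Glycerol kinase, Gk (ENSMUSG00000025059), which lets fat cells reuse glycerol, had the same order, 287 CPM in replicate 24 and 37.7 to 59.3 CPM in the others, against 13.5 to 17.8 CPM in eWAT (log2 difference 2.87, adjusted p = 0.00332). That library also held 7473 CPM of muscle markers and the lowest sum of endothelial markers in its group, and the part of these in its high values was not tested.

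Muscle genes were among the largest differences by size, and these rested on replicates 6 and 24. Titin, Ttn (ENSMUSG00000051747), the spring protein of the sarcomere, was at 760 and 865 CPM in replicates 24 and 6, and at 0.535 and 1.99 CPM in replicates 7 and 1. Its log2 difference of 11.60 (adjusted p = 0.00356) was 3.29 (adjusted p = 0.160) without those 2 libraries. Tcap, Myh4, Myh1 and Rpl3l, sarcomere and muscle-ribosome genes, also lost their call. The muscle calcium pump gene Atp2a1 kept a call, with a log2 difference of 4.03 (adjusted p = 0.0455) from the remaining levels of 1.31 and 4.88 CPM. Of 15 muscle markers, 14 were higher in BAT at TN with all libraries and 1 was without replicates 6 and 24, while 5 were at RT. Without replicates 6 and 24, Cox6a2 and Ryr1, muscle forms of a respiratory subunit and of a calcium channel, turned in sign at TN.

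Mitochondrial genes were higher in warm BAT almost throughout. All 13 protein-coding genes of the mitochondrial genome were higher in BAT at TN, with a median log2 difference of 3.05. mt-Co1 (ENSMUSG00000064351), which encodes the catalytic subunit of cytochrome c oxidase, was at 76460, 70840, 66380 and 155200 CPM in TN BAT and at 9914 to 12810 CPM in TN eWAT, a log2 difference of 3.04 (SE 0.26, adjusted p = 7.68e-08). Among 83 nuclear genes of the respiratory chain and ATP synthase, 79 were higher in BAT, 2 were higher in eWAT and 2 were not called, with a median of 1.66. Without the muscle-bearing libraries 75 were higher in BAT, and without the library labelled eWAT replicate 8 there were 77.

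These nuclear genes kept their direction at TN with smaller differences than at RT, where their median was 2.87. The interaction was called negative for 74 of the 83 and positive for none, against 9.00% negative and 7.64% positive over all genes tested. For Sdhb (ENSMUSG00000009863), the iron-sulfur subunit of complex II, levels were 834, 503, 521 and 621 CPM in TN BAT and 86.4 to 106.9 CPM in TN eWAT, while RT BAT held 926 to 1737 CPM. Its log2 difference was 2.70 at TN and 3.96 at RT, with an interaction of -1.26 (SE 0.26, adjusted p = 0.00494). On the mitochondrial genome 1 of 13 genes had a called interaction, and that of mt-Co1 was 0.23 (SE 0.35, adjusted p = 0.699).

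Fuel pathways that feed the respiratory chain showed the same arrangement. Of 31 fatty acid oxidation genes, 23 were higher in BAT at TN and 4 in eWAT, and 20 had a negative interaction. Acadvl (ENSMUSG00000018574), the first dehydrogenase of long-chain fatty acid oxidation, was at 2224, 1419, 1458 and 1351 CPM against 137 to 166 CPM, with log2 differences of 3.41 (SE 0.19, adjusted p = 3.91e-10) at TN and 4.80 at RT. Among 25 genes of the citric acid cycle, 19 were higher in BAT and 4 in eWAT (median 2.33 at TN and 3.25 at RT). For glucose uptake and glycolysis the count was 22 of 33 in BAT and 2 in eWAT (medians 1.31 and 2.54), and for the breakdown of branched-chain amino acids it was 17 of 24 and 2 (medians 0.864 and 1.45). Called interactions were all negative in these 3 lists, 18, 20 and 14 genes. Among 19 mitochondrial carriers and uncoupling proteins, which include Ucp1, 11 were higher in BAT and 4 in eWAT.

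Lipid synthesis genes stood differently between the depots in the 2 housings. In warm mice 6 of 28 lipogenic genes were higher in BAT, 13 were higher in eWAT and 9 were not called (median -0.539), whereas at RT 16 were higher in BAT and 4 in eWAT (median 0.66). The interaction was negative for 18 genes and positive for 3. Fatty acid synthase, Fasn (ENSMUSG00000025153), was at 3399, 649, 753 and 1097 CPM in TN BAT and 3514, 2636, 2614 and 1795 CPM in TN eWAT. The groups overlapped through BAT replicate 24, and the log2 difference of -0.84 (SE 0.43, adjusted p = 0.131) became -1.51 (adjusted p = 0.00200) without replicates 6 and 24. At RT it was 14740 to 28430 CPM in BAT and 3103 to 5329 CPM in eWAT (log2 difference 2.33, adjusted p = 0.000384), and the interaction was -3.17 (SE 0.61, adjusted p = 0.00374).

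Acsl5 (ENSMUSG00000024981), which activates fatty acids as coenzyme A esters, changed side with housing. It was at 52.6, 66.9, 67.5 and 66.2 CPM in TN BAT and 78.0, 91.3, 87.0 and 78.9 CPM in TN eWAT, so that BAT was the lower depot in every library (log2 difference -0.40, SE 0.12, adjusted p = 0.0129, and -0.32 with adjusted p = 0.0715 without the muscle-bearing libraries). In RT BAT it was at 641, 688, 765 and 754 CPM, far above RT eWAT at 67.7 to 86.4 CPM. The interaction was -3.58 (SE 0.18, adjusted p = 2.13e-09).

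Other steps of the pathway varied. Elovl6 (ENSMUSG00000041220), which lengthens palmitate, was still higher in warm BAT, at 159, 84.3, 103 and 127 CPM against 39.3 to 55.6 CPM, but its log2 difference was 1.36 at TN and 4.57 at RT (interaction -3.21, adjusted p = 2.87e-05). The citrate carrier Slc25a1 (ENSMUSG00000003528) turned over, from 0.81 (adjusted p = 0.00896) at RT to -1.33 (adjusted p = 0.000247) at TN. So did Scd1 (ENSMUSG00000037071), the desaturase that was among the most abundant transcripts of both depots: it was at 35870 to 37000 CPM in TN BAT and 54920 to 57380 CPM in TN eWAT (log2 difference -0.61, adjusted p = 0.00596), and higher in BAT at RT (0.58, adjusted p = 0.00700). Scd1 has close paralogs, and how shared reads were assigned is not given in the sources used here. Mlxipl (ENSMUSG00000005373), which encodes the carbohydrate-sensing regulator ChREBP, did not follow: it was at 129, 166, 191 and 186 CPM against 14.5 to 29.0 CPM, with log2 differences of 2.98 at TN and 2.91 at RT.

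**Figure D3:**
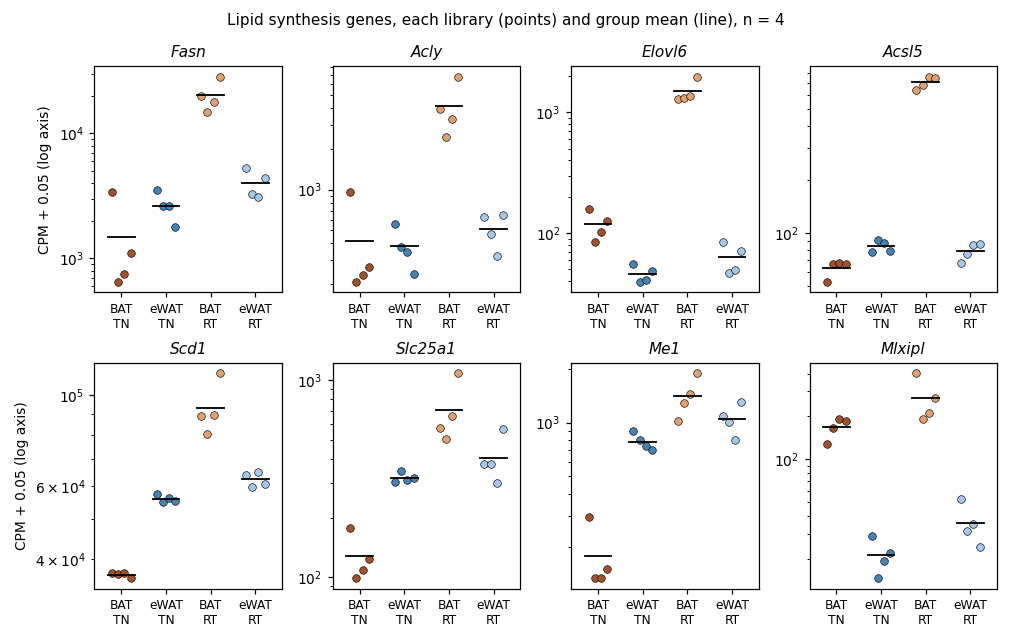
CPM (log axis) of 8 genes of lipid synthesis in BAT and eWAT at TN and RT, each point a library and each line the group mean. Acsl5 lies at 52.6 to 67.5 CPM in TN BAT, below TN eWAT, and at 641 to 765 CPM in RT BAT, whereas Mlxipl is higher in BAT than in eWAT at both temperatures.

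Elovl3 (ENSMUSG00000038754), a cold-responsive elongase of very long chain fatty acids, had the most negative interaction among the genes named for their interaction. It was at 192 to 387 CPM in RT BAT but at 5.15, 0.307, 1.31 and 1.61 CPM in TN BAT, beside 0.141 to 1.25 CPM in TN eWAT. The warm groups overlapped, and the log2 difference of 1.89 (SE 0.86, adjusted p = 0.0984) was not called with all libraries but was without the library labelled eWAT replicate 8 (2.72, adjusted p = 0.0486). Its interaction was -5.51 (SE 1.18, adjusted p = 0.00842). Acot11 (ENSMUSG00000034853), an acyl-CoA thioesterase of brown fat, was at 153, 49.8, 50.2 and 84.6 CPM in TN BAT against 3.00 to 3.95 CPM in eWAT, and at 846 to 1485 CPM in RT BAT. It remained a depot marker when warm (log2 difference 4.53, adjusted p = 6.33e-08) with a difference smaller by 3.85 on the log2 scale than at RT (adjusted p = 0.000177). Besides Elovl3, the brown-fat genes not called at TN were Lhx8, Esrrb, Them4 and Fgf21.

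On the other side, 20 of 22 genes listed for white adipocytes were higher in eWAT at TN, none was higher in BAT and 2, Nnat and Rbp7, were not called, with a median log2 difference of -3.65 (-4.38 at RT). Leptin, Lep (ENSMUSG00000059201), the hormone that reports fat stores to the brain, was at 3445, 3343, 3109 and 3018 CPM in TN eWAT and 250, 291, 408 and 254 CPM in TN BAT. The depots were apart in every library (log2 difference -3.42, SE 0.22, adjusted p = 2.12e-09). At RT the difference was -4.43, with 107 to 200 CPM in BAT and 2571 to 3648 CPM in eWAT, and the interaction was 1.00 (SE 0.28, adjusted p = 0.0229).

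Resistin, Retn (ENSMUSG00000012705), an adipocyte hormone of rodents, was at 1614, 955, 992 and 956 CPM in TN eWAT and 99.4, 20.7, 46.3 and 105 CPM in TN BAT (log2 difference -4.06, adjusted p = 8.02e-05). Sfrp5 (ENSMUSG00000018822), a secreted Wnt antagonist, was at 275, 367, 361 and 266 CPM against 3.38 to 7.66 CPM, a log2 difference of -5.98 (SE 0.45, adjusted p = 8.96e-08). Both genes lay wholly apart between the depots in each housing. Mest (ENSMUSG00000051855), an imprinted gene linked to adipocyte enlargement, was at 736, 919, 968 and 1185 CPM against 36.9, 45.8, 80.5 and 46.3 CPM. RT BAT held 1.27 to 7.47 CPM of Mest, so that the log2 difference was -4.18 at TN and -7.58 at RT (interaction 3.40, SE 0.58, adjusted p = 0.00208). Oxtr (ENSMUSG00000049112), the oxytocin receptor gene, was at 97.5 to 283 CPM against 0.584 to 3.97 CPM, a log2 difference of -6.64 (adjusted p = 2.41e-06).

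Among secreted factors as a list, 14 of 29 were higher in eWAT, 3 in BAT and 12 were not called. Adiponectin, Adipoq (ENSMUSG00000022878), which raises insulin sensitivity, was at 2658, 2589, 2818 and 3102 CPM in TN eWAT and 1175, 797, 885 and 1036 CPM in TN BAT, with log2 differences of -1.52 at TN and -1.54 at RT. Rbp4 (ENSMUSG00000024990), the retinol carrier, was the adipokine whose gap was wider when warm: it was at 40.1 to 76.0 CPM in TN BAT and 128 to 381 CPM in RT BAT, with log2 differences of -3.49 and -1.59 and an interaction of -1.91 (SE 0.38, adjusted p = 0.00362). Igf1 (ENSMUSG00000020053), a growth factor, went the other way, with -2.77 at TN and -4.52 at RT (interaction 1.75, adjusted p = 0.00682). Agt (ENSMUSG00000031980), the renin substrate whose hepatocyte copy defines the knockout line, was at 112, 49.7, 52.9 and 7.57 CPM in TN eWAT and 1.72 to 2.78 CPM in TN BAT. The lowest eWAT value came from the library labelled replicate 8, and the log2 difference of -4.58 (adjusted p = 0.000299) was -4.94 without it.

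Other parts of the renin-angiotensin system, which turns Agt into angiotensin peptides, were measured because the line is defined by Agt. Of 15 listed genes 10 had enough counts, 5 were higher in eWAT, 1 was higher in BAT and 4 were not called at TN. Angiotensin-converting enzyme, Ace (ENSMUSG00000020681), was at 41.2, 54.9, 53.9 and 55.7 CPM in TN eWAT and 22.1, 31.0, 27.9 and 24.7 CPM in TN BAT. The depots did not overlap, and the log2 difference was -0.96 (adjusted p = 0.000276) at TN and -2.24 at RT, with an interaction of 1.28 (SE 0.25, adjusted p = 0.00323). The exception was Mme (ENSMUSG00000027820), neprilysin, which degrades peptides and was higher in BAT, at 181 to 234 CPM against 62.3 to 169 CPM (log2 difference 0.96, adjusted p = 0.00646).

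Genes shared by all adipocytes were split. Of 20 such genes 12 were higher in eWAT and 6 in BAT at TN. Lipoprotein lipase, Lpl (ENSMUSG00000015568), which frees fatty acids from circulating triglyceride, was at 11660 to 13500 CPM in TN eWAT and 2134 to 3711 CPM in TN BAT (log2 difference -2.05, adjusted p = 1.35e-06). Cidec (ENSMUSG00000030278), the droplet protein of white adipocytes, was at 2484 to 3639 CPM against 368 to 742 CPM (log2 difference -2.52 at TN and -1.33 at RT, interaction -1.18, adjusted p = 0.0204). Fabp4 (ENSMUSG00000062515), the adipocyte fatty acid binding protein, was at 10840 to 11770 CPM in TN eWAT and 6036 to 8720 CPM in TN BAT (log2 difference -0.67, adjusted p = 0.00538). At RT its difference was 0.25 (adjusted p = 0.251), and the interaction was -0.92 (adjusted p = 0.0185). Storage and breakdown of triglyceride as a list showed no common direction, with 7 of 30 genes higher in BAT and 11 in eWAT.

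Genes of body position were tested as a Hox list. Hoxc9 (ENSMUSG00000036139), a homeobox gene of the posterior trunk, was at 0 in all 8 BAT libraries of both housings and at 6.62, 7.81, 6.02 and 9.45 CPM in TN eWAT. It was at least 60.3-fold higher in eWAT at TN and at least 42.8-fold at RT. Its neighbour Hoxc8 (ENSMUSG00000001657) was at 116, 124, 127 and 115 CPM against 9.67, 5.75, 8.50 and 1.45 CPM, with log2 differences of -4.24 at TN and -4.23 at RT. Over the Hox list, 26 of 38 genes had enough counts, 5 were higher in eWAT, 4 were higher in BAT and 17 were not called at TN, a share near the background on each side. The calls of Hoxc10 and Hoxa10 drew on the library labelled eWAT replicate 8, which held 19.3 and 19.8 CPM where the other 3 TN eWAT libraries held at most 1.66 and 0.602 CPM, and all 8 wild-type BAT libraries 0.

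Other developmental transcription factors depended on that library too. Tcf21 (ENSMUSG00000045680), a factor of visceral mesenchyme, was at 0 in every wild-type BAT library and at 3.97, 3.33, 4.51 and 0.0943 CPM in TN eWAT, the last being the library labelled replicate 8. Tbx15 (ENSMUSG00000027868) was at 13.5, 14.4, 5.56 and 4.72 CPM in TN BAT, at 0 in eWAT replicates 23, 6 and 7 and at 14.3 CPM in the library labelled replicate 8. It was not called with all libraries (log2 difference 1.41, adjusted p = 0.530) but was higher in BAT without that library (adjusted p = 0.000389). Of 30 developmental factors tested, 7 were higher in BAT and 8 in eWAT with it, and 11 and 8 without it. That library was set apart partly by its levels of Tbx15 and Tcf21. The values without it therefore describe these genes and are no test.

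The cells around the adipocytes differed as well. Of 35 collagen and matrix genes 29 were higher in eWAT, 4 were higher in BAT and 2 were not called at TN (median -1.57), and 31 were higher in eWAT at RT (median -2.52). Col15a1 (ENSMUSG00000028339), a basement membrane collagen, was at 714, 590, 612 and 534 CPM against 54.4, 61.8, 75.9 and 80.9 CPM, a log2 difference of -3.17 (SE 0.17, adjusted p = 3.66e-10) that was smaller than the -4.81 at RT (interaction 1.65, adjusted p = 0.000361). Col1a1 (ENSMUSG00000001506), the main fibrillar collagen, was at 360 to 615 CPM against 103 to 173 CPM (log2 difference -1.81, adjusted p = 8.05e-07). The interaction was positive, towards a smaller gap in warm mice, for 18 of the 35 genes and negative for none. The summed level of 8 fibroblast markers was 2174 to 3585 CPM in TN eWAT and 1029 to 1241 CPM in TN BAT. These markers include the collagen genes Col1a1 and Col3a1, so the sum is not separate from the collagen result. The part of fibroblast number was not tested.

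Genes of macrophages, including those of lipid-laden macrophages in obese fat, were higher in eWAT for 24 of 31 at TN, with 2 higher in BAT (median -1.98 at TN and -2.63 at RT). Lgals3 (ENSMUSG00000050335), a galectin of activated macrophages, was at 191, 373, 313 and 177 CPM against 17.8, 35.6, 33.5 and 17.7 CPM (log2 difference -3.33, SE 0.39, adjusted p = 8.81e-06). Cd68 (ENSMUSG00000018774), a lysosomal marker of macrophages, was at 52.9, 86.3, 74.7 and 35.2 CPM against 12.1, 19.5, 16.3 and 9.35 CPM (log2 difference -2.12, adjusted p = 7.79e-05). The summed level of 10 macrophage markers was 803 to 1220 CPM in TN eWAT and 224 to 324 CPM in TN BAT. Saa3 (ENSMUSG00000040026), an acute-phase protein gene of inflamed fat, was at 14.5 to 86.1 CPM against 0.278 to 1.51 CPM (log2 difference -6.03, adjusted p = 0.000251).

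Vascular and nerve-associated genes were mostly higher in warm BAT. Of 24 such genes 20 were higher in BAT at TN, none was higher in eWAT and 4 were not called (median 1.71), while at RT 11 were higher in BAT and 3 in eWAT (median 0.575), and the interaction was positive for 5 genes and negative for 1. Among 8 endothelial markers, 7 were higher in BAT at TN, and 1 was higher in BAT and 1 in eWAT at RT, with 4 positive interactions. Pecam1 (ENSMUSG00000020717), a junction protein of endothelium, was at 71.6, 220, 209 and 259 CPM in TN BAT and 50.4 to 79.1 CPM in TN eWAT. BAT replicate 24 overlapped eWAT while the other three lay above it, and the log2 difference was 1.62 (SE 0.37, adjusted p = 0.00247). At RT the depots overlapped, at 56.2 to 104 and 46.4 to 127 CPM (log2 difference -0.12, adjusted p = 0.803), and the interaction was 1.74 (SE 0.51, adjusted p = 0.0307). Claudin-5, Cldn5 (ENSMUSG00000041378), a tight-junction protein of small vessels, changed side, from -1.42 (adjusted p = 0.00562) at RT to 1.23 (adjusted p = 0.0152) at TN.

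Receptors and their signalling enzymes were mixed, with 13 of 24 adrenergic and natriuretic genes higher in BAT and 5 in eWAT at TN. The β1-adrenergic receptor gene Adrb1 (ENSMUSG00000035283) was at 38.7, 22.6, 32.5 and 26.1 CPM in TN BAT and 2.00 to 3.96 CPM in TN eWAT, with log2 differences of 3.37 at TN and 3.38 at RT. Adrb3 (ENSMUSG00000031489), the receptor that dominates in rodent adipocytes, was at 168, 120, 165 and 150 CPM against 281, 269, 326 and 120 CPM, the last in the library labelled replicate 8. The groups overlapped through that library, and the difference of -0.72 (SE 0.26, adjusted p = 0.0353) was -0.95 (adjusted p = 0.00166) without it and -0.65 (adjusted p = 0.157) without BAT replicates 6 and 24.

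Npr1 (ENSMUSG00000027931), the natriuretic peptide receptor gene, was at 60.8 to 117 CPM against 21.3 to 29.5 CPM, with log2 differences of 1.89 at TN and 0.34 at RT (interaction 1.54, adjusted p = 0.00784). Adcy5 (ENSMUSG00000022840), an adenylyl cyclase, was higher in eWAT, at 178, 203, 204 and 167 CPM against 15.4, 9.28, 11.7 and 13.3 CPM, with log2 differences of -3.92 at TN and -6.08 at RT (interaction 2.16, adjusted p = 0.00564). The sum of endothelial markers in TN BAT, 365 CPM in replicate 24 and 833 to 1162 CPM in the others, had the same low library as Npr1, and its part in this difference was not tested.

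With all libraries, most genes that were higher in one depot at RT were called the same way in warm mice. Among 4253 genes higher in BAT at RT (22.8% of those tested), 2453 (57.7%) were also called higher in BAT at TN, 80 were called lower and 1720 were not called. For 4897 genes higher in eWAT at RT (26.2%), the same count was 2786 (56.9%), with 57 opposite and 2054 not called. Of the genes at least 4-fold apart at RT (18.5% of those tested, 6.41% higher in BAT and 12.1% higher in eWAT), 926 of 1197 (77.4%) on the BAT side and 1436 of 2267 (63.3%) on the eWAT side were called again. Since RT values chose these genes, the shares describe them and are no test. Without BAT replicates 6 and 24 the shares were 49.0% on the BAT side and 47.0% on the eWAT side, no longer a majority. That fit has only 2 TN BAT libraries and so less power. Without the library labelled eWAT replicate 8 the shares were 54.9% and 54.7%. In all, 5239 genes (28.0% of those tested) differed in the same direction at the 2 temperatures, 2453 (13.1%) higher in BAT and 2786 (14.9%) higher in eWAT.

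The test of the difference itself gave fewer genes. The interaction was called for 3109 of 18680 genes (16.6%), 1681 negative and 1428 positive, so that 45.9% were positive. That majority turned when some single libraries were left out, to 54.2% positive without RT BAT replicate 15 and to 52.2% without TN BAT replicate 24. Of the 4253 genes higher in BAT at RT, 1362 had an interaction towards a smaller TN difference, 25 towards a larger one and 2866 (67.4%) none that passed the test. On the eWAT side 1071 of 4897 moved towards a smaller difference and 52 towards a larger one. For genes at least 4-fold apart at RT, the median log2 difference was 3.00 at RT and 1.97 at TN on the BAT side, and -3.18 and -1.81 on the eWAT side. RT values chose these genes and also enter the interaction, which by itself tilts such splits and medians towards a smaller TN difference. They describe the genes and are no test of a general shrinkage.

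**Figure D4:**
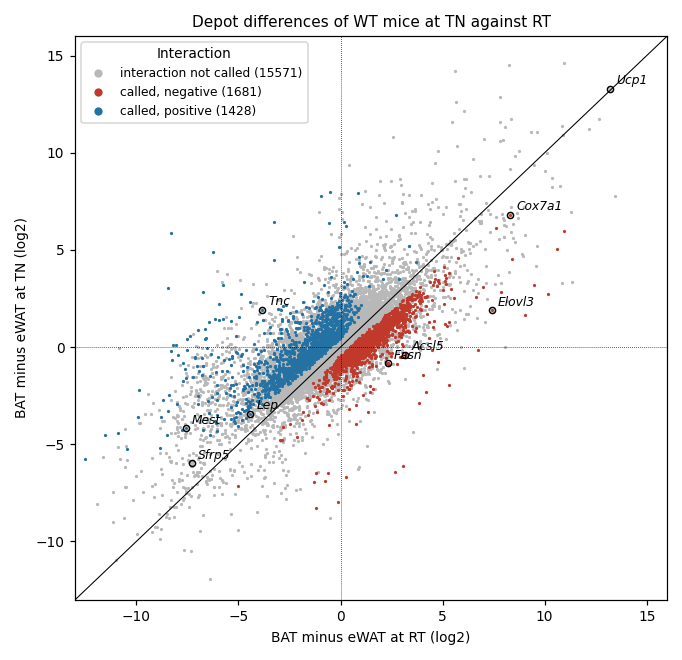
Log2 difference (BAT minus eWAT) of 18680 genes at RT (x axis) and TN (y axis), with genes of a called negative interaction in red (1681), positive in blue (1428) and the rest in grey, and the line of equality. Ucp1 lies near the line at 13.19 and 13.28, values that rest on eWAT levels near 0, and Acsl5 crosses from 3.18 at RT to -0.40 at TN.

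Only 137 genes (0.733% of those tested) were called in opposite directions, 80 of them higher in BAT at RT. Besides Acsl5, Scd1 and Slc25a1, one that went the other way was Tnc (ENSMUSG00000028364), tenascin C, a matrix protein of remodelling tissue. It was at 14.2, 30.6, 27.0 and 32.2 CPM in TN BAT and 4.81 to 7.95 CPM in TN eWAT, but at 0.182 to 1.14 CPM in RT BAT and 5.03 to 9.92 CPM in RT eWAT. Its log2 difference was 1.93 (adjusted p = 0.000620) at TN and -3.83 at RT, an interaction of 5.76 (SE 0.59, adjusted p = 4.92e-05).

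**Figure D5:**
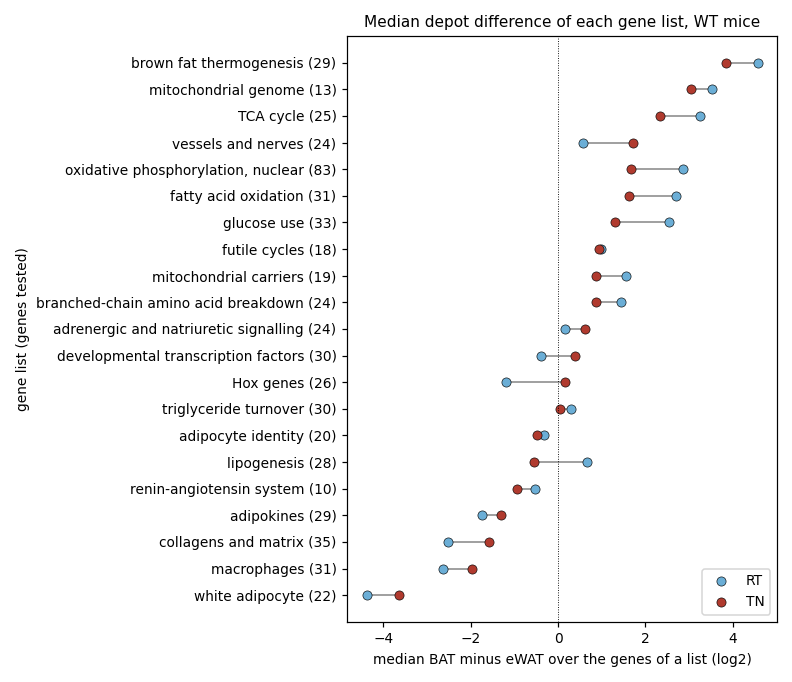
Median log2 difference (BAT minus eWAT) of each of 21 gene lists at RT and TN, over the members with enough counts. The nuclear respiratory chain list has medians of 2.87 and 1.66 and the white adipocyte list of -4.38 and -3.65. Lipogenesis (0.66 and -0.539), Hox genes (-1.20 and 0.163) and developmental factors (-0.382 and 0.379) have medians on opposite sides of 0. The interaction was called for 18 negative and 3 positive of 28 lipogenic genes. It was called for only 2 of 26 Hox genes and 4 of 30 developmental factors, all positive, against 16.6% over all genes tested.

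The depots were also compared in the hepAGT-/- mice at TN, whose libraries were fitted apart. There 7389 of 18871 genes (39.2%) differed, 3590 (19.0%) higher in BAT and 3799 (20.1%) higher in eWAT. Of the 3934 genes higher in BAT in wild-type mice, 2734 were called the same way, which is 69.5% of the wild-type list and 76.2% of the knockout list. Both BAT groups held muscle-bearing libraries: in hepAGT-/- TN BAT the muscle markers summed to 9606 CPM in replicate 2 and 1449 CPM in replicate 5, against 108 and 81.7 CPM in replicates 3 and 4, and 11 of 15 were higher in BAT, as 14 were in wild-type mice. On the eWAT side 2862 genes were shared, 77.1% and 75.3% of the lists. The sign agreed for 3797 of 3902 (97.3%) wild-type BAT genes and 3567 of 3629 (98.3%) wild-type eWAT genes that could be tested in both. Ucp1 had a log2 difference of 15.51 (adjusted p = 1.62e-10), Lep of -3.78 and Elovl3 of 1.52 (adjusted p = 0.255) in the knockout depots. Tbx15 was higher in BAT there (log2 difference 7.05, adjusted p = 0.00206), as it was in the wild-type libraries without the library labelled eWAT replicate 8.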

How the data were processed

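RNA-seq read counts per gene of the wild-type BAT and eWAT libraries at TN and RT, and of hepAGT-/- BAT and eWAT at TN and RT, were analysed. The liver libraries were not used here. The values deposited by the authors are raw counts, and the submitters' processing notes name fastp, STAR 2.6.1d, featureCounts 1.5.0-p3 and the builds GRCm38 and mm10, without roles. Per the labels' protocols, RNA came from snap-frozen tissue and libraries were made with NEBNext Ultra kits and sequenced in pairs on an Illumina NovaSeq. Whether counting used strand is not given in the sources used here, so overlapping antisense genes and near-identical copies are uncertain. Of 56748 gene identifiers 52073 (91.8%) matched a symbol.

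From these counts, genes passing edgeR's filterByExpr (minimum count 10) were scaled by TMM and fitted by edgeR 4.0.16 quasi-likelihood (R 4.3.3) over the 16 wild-type fat libraries, with 1 mean per group of 4. Contrasts were BAT minus eWAT at TN, at RT, and TN minus RT of these. Knockout libraries were fitted apart. A call is a Benjamini-Hochberg adjusted p under 0.05 over all genes tested. The SE is the fitted log2 difference over the square root of its F. Levels are CPM on TMM-scaled library sizes and are not per length. The fit was also run on simulated counts, where few genes differed between groups. Far more differed in the real contrast (40.9% called at TN), so that run is no check on it. P-values set differences of group means against the spread between the libraries of a fit. In the wild-type fit that spread includes the muscle-bearing libraries and the library labelled eWAT TN replicate 8.

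Genes were named by rule: Ucp1, in each direction the 12 largest called log2 differences and the 5 largest in CPM (depots not overlapping, averaging 5 CPM or more across the 8 libraries), the 6 largest interactions (5 CPM or more across the 16), and the 5 largest called members of each list. Other genes of the lists were described after their values were seen. The comparison and the 21 gene lists and 11 marker lists were chosen with earlier results of these data known. Alternatives were RLE scaling, scaling without mitochondrial genes, other filters, DESeq2 1.42.0, limma 3.58.1 voom with and without a replicate block, other sets of libraries, each library left out, and, chosen after seeing the data, leaving out TN BAT replicates 6 and 24 together. Promoter windows came from RefSeq (GRCm38.p6).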

Additional observations from a re-analysis of the deposited data

Results flagged for a closer look

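For 10 of 114 checks for a stray library within a TN group of 4, the gap to the nearest library was over Dixon's limit, where chance gives about 1 in 20. TN BAT replicate 24 was the stray for Fabp3 (1490 CPM, high), Hephl1 (1.95 CPM, high) and Acsl5 (52.6 CPM, low). Replicate 1 was for mt-Co1 (155000 CPM, high) and replicate 7 for Mup12 (145 CPM, high), one of the major urinary protein genes, whose near-identical copies make its counts uncertain. In TN eWAT, replicate 23 was high for Sult1e1 (40.3 CPM), Sez6l (20.0 CPM) and the summed white adipocyte markers (13100 CPM). Replicate 6 was low for Acot11 (3.00 CPM), and the library labelled replicate 8 was the stray for Dnajc6 (9.92 CPM).

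The depot difference itself differed between housings for 3109 genes by the interaction test. Negative log2 interactions among the genes named for their interaction were Elovl3 (-5.51), Hephl1 (-4.72), Ttc25 (-4.04), Acot11 (-3.85), Rims4 (-3.73) and Acsl5 (-3.58). Positive ones were Mup12 (14.2), Mup15 (11.2), Cacna1e (7.04), Akr1cl (6.75), Tnc (5.76) and Aldh1a2 (4.03). Mup12 stood at 145 CPM in TN BAT replicate 7 alone, and at 347 and 908 CPM in RT eWAT replicates 13 and 18 with under 1 CPM in the other RT eWAT libraries. Its interaction was not called without TN BAT replicate 7 (log2 9.62). Hepatocyte markers summed to 2732 and 2680 CPM in RT eWAT replicates 13 and 18, and to 1182 and 1091 CPM in replicates 12 and 15. In TN BAT their sum was 947 CPM in replicate 7 and 922 CPM in replicate 1. The part of hepatocyte transcripts in the Mup12 and Mup15 interactions was not tested.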

How the results depend on the processing

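All counts of called genes (TN, RT, both temperatures, interaction and hepAGT-/- depots) stayed within 1.5 times of the reported ones, and Ucp1 kept its direction and call, under each alternative run. With one library left out at a time, 6579 to 7745 genes were called at TN, 8287 to 9104 at RT, 4731 to 5109 at both, 2160 to 4607 for the interaction and 6416 to 7163 in hepAGT-/- mice. The log2 difference of Ucp1 ran from 12.697 to 14.474. With a replicate block in limma-voom the counts were 8191, 9150, 5534, 2981 and 8022, and Ucp1 was 13.899. The main fit did not take replicate numbers as pairs, because the labels do not say whether same-numbered libraries share an animal. Same-numbered libraries did not deviate together (correlations of 0.0225 and -0.0923 at TN), but so few correlations between unlike tissues cannot decide this. Replicate numbers recur across tissues within a genotype and housing, but none recurs between these groups. A pairing therefore remains possible, and the main fit did not model it. Among single genes, 111 values under an alternative lost their call and 8 gained one. Without both muscle-bearing BAT TN libraries 2 turned in sign, Cox6a2 to -7.2412 and Ryr1 to -2.2831, neither called. Under limma-voom the interactions of Mup12, Mup15, Akr1cl, Aldh1a2 and Cacna1e lost their call, and the cause was not tested. The depth sets a floor of 3 counts per library for genes listed at 0.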

Other observations

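Genes of creatine, calcium and glycerol-lipid cycling, which are known as further heat-making routes of fat, were higher in BAT for 10 of 18 tested and higher in eWAT for 5 at TN. Without the muscle-bearing BAT replicates 6 and 24 the counts were 8 and 3. Ckmt2, a mitochondrial creatine kinase gene, was at 78.0 and 35.4 CPM in replicates 24 and 6, at 0 and 0.497 CPM in replicates 7 and 1, and at 0 in each TN eWAT library.

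Markers of the depots' own cells followed the labels, with 9 of 10 brown adipocyte markers higher in BAT and 7 of 8 white adipocyte markers higher in eWAT at TN. Higher in eWAT were also 9 of 12 mesothelial, 9 of 10 macrophage, 5 of 8 fibroblast, 3 of 11 T cell, 1 of 8 B cell and 1 of 10 hepatocyte markers, and none of these was higher in BAT. The last 3 counts are near or below the share of all genes tested that were called higher in eWAT, 19.9%. The sum of 10 B and plasma cell markers was nevertheless 386 to 546 CPM in TN eWAT and 31.1 to 84.9 CPM in TN BAT. For 11 T cell markers it was 31.6 to 54.2 and 11.7 to 22.2 CPM. Without BAT replicates 6 and 24 the mesothelial count was 6. Without the library labelled eWAT replicate 8 it was 9, the T cell count 1 and the fibroblast count 4. None of 6 tested epididymis markers differed at TN, where their sum was 0.519 to 15.8 CPM in eWAT, but it reached 1077 CPM in 1 RT eWAT library, replicate 18. Hepatocyte markers summed to 145 to 947 CPM in TN BAT and 554 to 1761 CPM in TN eWAT.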
